A study of Homo sapiens with 6 samples.

Results

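The genes examined here are 43 genes of protein folding, made up of the sensors of the unfolded protein response, the chaperones and degradation factors of the endoplasmic reticulum (ER) and the heat shock proteins of the cytosol and mitochondria. They were chosen by symbol, and each was matched to a single row of the deposited count table of 58735 Ensembl genes. All 43 passed the filter on low counts (at least 10 counts in at least 3 libraries), as did 15078 genes in all. The lowest count of any of them in any library was 64. RNA of Meg-01, an established human megakaryoblastic cell line, was sequenced in 6 libraries. In 3 libraries the cells were untreated, and in 3 they had been given 500 µM sodium propionate (C3), the salt of a short-chain fatty acid that gut microbes release. The labels of the C3 libraries give a treatment time of 48 h, and the methods also name 24 h. The control labels give no time, so a difference in culture time could not be told apart from the treatment. All libraries come from the same cell line and no source names separate cultures, since the study calls the replicates technical, so the p-values measure only the spread between these libraries.

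Library totals lay between 16159449 and 22821722 counts, of which the 43 genes took 1.77% to 1.80%. On the second principal component (17.4% of the variance), control replicate 3 stood apart from the other control libraries and C3 replicate 1 from the other C3 libraries, so calls of members that change without either of them are given both ways. Megakaryocyte genes were present, with ITGA2B (the alpha IIb integrin) at 11611 to 13336 normalized counts and the transcription factor GATA1 at 1759 to 1966, whereas PF4 and GP1BB were listed at 0 in every library. Of the exon bases of GP1BB, 100% overlap other genes of its strand, so its 0 does not show that it was absent. Summed over 12 such markers, the level was 1317 to 1379 CPM (counts scaled to library size) in control and 1253 to 1369 in C3 libraries. The sum is weighted to abundant markers such as ITGA2B. After C3 treatment, 1 tested marker was higher, ITGB3 (log2 fold change 0.34, adjusted p = 0.033 by edgeR). The 2 lower markers were GP1BA (-0.49, adjusted p = 2.2e-06 by edgeR) and TUBB1 (-1.36, adjusted p = 0.0025). Of the exon bases of ITGB3, 33.2% overlap a gene of its strand, and of those of TUBB1, 35.5% overlap a gene of the other strand. Of 5 lymphoid markers, MS4A1 was at 0 in all libraries, and none was called. Of 5 stromal and epithelial markers, KRT5 was at 0 in all libraries and COL1A1 was called higher, with a sum of 9.79 to 12.6 CPM in control and 10.8 to 13.1 in C3 libraries. Of 3 monocyte markers, the sum was 37.0 to 38.5 CPM in control and 28.4 to 29.4 in C3 libraries, with LYZ called lower. The part of these markers in the results below was not tested.

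Proteins that enter the ER fold with the help of the chaperones HSPA5 (BiP) and HSP90B1 (GRP94), lectins that hold glycoproteins and enzymes that form disulfide bonds. When unfolded proteins build up, the sensors ERN1 (IRE1), EIF2AK3 (PERK) and ATF6 start the unfolded protein response, which slows translation and raises the transcripts of ER chaperones and of factors that return failed proteins to the cytosol for degradation. In the cytosol, HSF1 drives the heat shock response, whose targets include inducible Hsp70 and Hsp90 chaperones. Megakaryocytes make large amounts of secreted and membrane proteins through the ER on their way to platelets.

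After C3 treatment, 6 transcripts of the ER Hsp70 and Hsp90 system rose by 14.3% to 23.2%, the degradation lectin EDEM1 rose by 24.7%, the ER oxidase gene ERO1B rose by 69.4%, and transcripts of the cytosolic chaperone HSPA8, its partner DNAJA1 and the ER genes CRELD2 and DERL1 fell. At an adjusted p-value below 0.05 (edgeR's quasi-likelihood test, Benjamini-Hochberg adjustment over all genes tested), 10 of the 43 genes were higher and 4 were lower. Among all genes tested, 11% were higher and 8.77% lower by the same rule, so the share of higher genes here (23.3%) lay above the background and the share of lower genes (9.30%) lay near it. Scaled by library size alone, 2312 of all genes tested were higher and 609 lower, in place of 1658 and 1323, and of the 43 genes 13 were higher and 1 lower. With 1 library left out, 5 to 9 of the 43 genes were higher and 1 to 7 lower. Of all 15078 genes tested, 1089 to 1888 were then higher and 604 to 1940 lower. The shares differ with abundance. Among the 6294 genes with a mean of at least 500 normalized counts, a limit set after the values were seen, 9.47% were higher and 15.8% lower, and of the 37 genes of this group above that limit 9 were higher and 3 lower. The median log2 fold change was 0.0081 over the 43 genes and 0.0021 over all genes tested, with 22 values above 0 and 21 below. The changes were small. The gates used by the study (adjusted p below 0.01, change above 1.3-fold) were passed by ERO1B alone, against 5.05% of all genes tested in the higher and 1.47% in the lower direction. ERO1B no longer passed these gates by DESeq2 (adjusted p = 0.015) or without control replicate 1, control replicate 2, C3 replicate 2 or C3 replicate 3 (adjusted p = 0.023, 0.019, 0.016 and 0.039 by edgeR). The 3 C3 libraries lay above all control libraries in 13 of the 43 genes and below them in 9, against 17.5% and 16.9% of all genes tested.

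**Figure D1:**
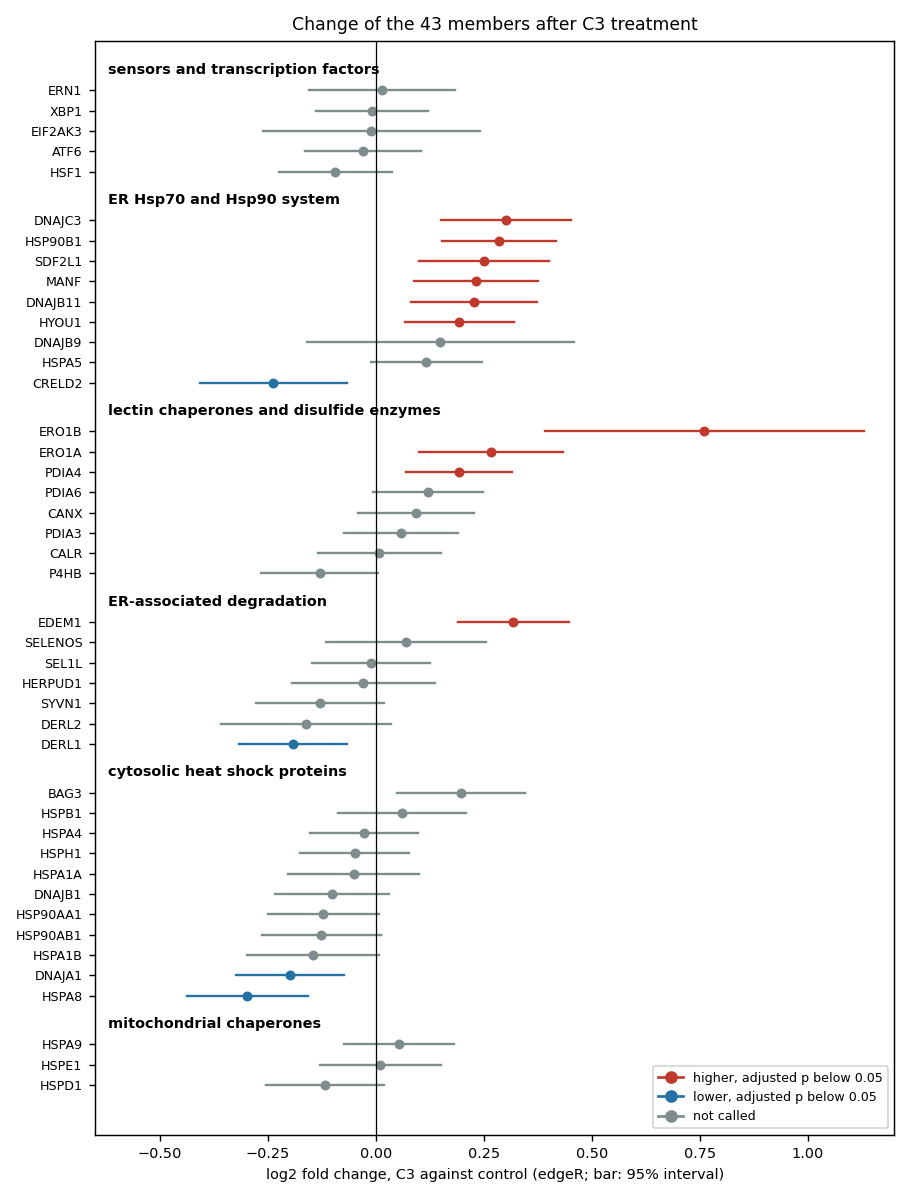
Log2 fold change of each of the 43 genes, C3 against control, from edgeR (points) with the 95% interval (bars), grouped by role. The 10 genes called higher are all ER genes, with ERO1B at 0.76 the farthest from 0, and the 4 called lower are CRELD2, DERL1, DNAJA1 and HSPA8.

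By role, the 9 genes of the ER Hsp70 and Hsp90 system had 6 higher and 1 lower, with a median log2 fold change of 0.23. The 8 lectin chaperone and disulfide genes had 3 higher and 0 lower (also 3 and 0 without adjustment), with a median of 0.11. The 7 genes of ER-associated degradation had 1 higher and 1 lower, with a median of -0.03. None of the 5 sensors and transcription factors was called, nor any of the 3 mitochondrial chaperones, and the count at an unadjusted p-value below 0.05 was also 0 for both. The 11 cytosolic heat shock genes had 0 higher and 2 lower (1 and 2 without adjustment) and a median of -0.10. Among all genes tested, 11% were higher and 8.77% lower (16.8% and 15.3% without adjustment). These role counts depend on single libraries. Without C3 replicate 3, HYOU1, MANF, DNAJB11, CRELD2, ERO1A, PDIA4, DERL1 and DNAJA1 lost their calls. In that fit, 1089 of all genes tested were higher and 604 lower, in place of 1658 and 1323. Averaged per library on the log2 scale, relative to the control mean, the ER Hsp70 and Hsp90 system stood at -0.0077, 0.0117 and -0.0039 in control libraries and at 0.15, 0.16 and 0.18 in C3 libraries. The cytosolic genes stood at -0.018, -0.0097 and 0.028 in control and at -0.041, -0.11 and -0.089 in C3 libraries. Neither list had overlapping groups. These lists were drawn up with earlier results of these data known, so their averages are given without a test. In these bulk libraries, a change in RNA per cell cannot be told apart from a change in the share of cells that carry it.

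**Figure D2:**
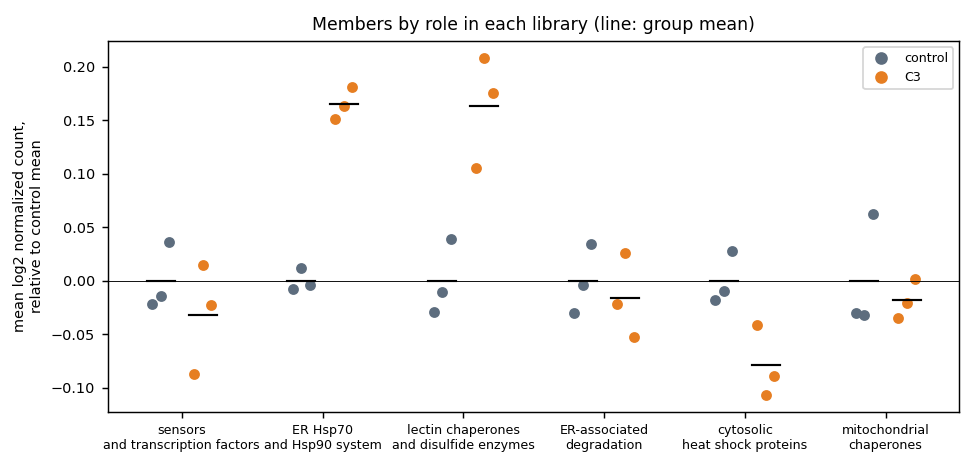
Mean log2 normalized count of the genes of each role in each library, relative to the control mean of that role. Points are libraries and lines are group means (n = 3 each). The 3 C3 libraries lie above the control libraries for the ER Hsp70 and Hsp90 system and for the lectin and disulfide genes, below them for the cytosolic genes, and the groups overlap for the other roles.

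Some promoters of these genes carry the short elements by which both responses are known to act, and most of those searched held none of the 4 elements below. The promoter windows (RefSeq, GRCh38.p14, 250 bases before to 50 after a transcript start) were found for 40 of the 43 genes, all but DERL1, HSF1 and PDIA3, and 8 of the 40 have several windows. Each motif was searched as exact letters on both strands, so near matches were not counted. The choice of motifs was made after the changes were known. The ER stress response element, ERSE, searched as CCAAT and CCACG with 9 bases of any kind between them, was in 8 of the 40 genes (20%), against 0.0916% of the 27305 genes with a window. ERSE-II, searched as ATTGG and CCACG with 1 base of any kind between them, was in HERPUD1, HYOU1 and SDF2L1 (7.5% against 0.0696%). The heat shock element, HSE, searched as GAA, TTC and GAA with 2 bases of any kind after each of the first units, was in 5 genes (12.5% against 0.608%). A core of the unfolded protein response element, TGACGTGG, was in HYOU1 alone (2.5% against 0.927%), where it overlaps an ERSE-II match. The ERSE contains the CCAAT box, which by itself was in 70% of the 40 genes and in 39.7% of all genes with a window. A match describes letters in a window and not binding.

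The windows of 4 genes are printed to set the sequence beside the change, ERSE and HSE matches in capitals, 5′ to 3′ on the strand of the gene. HSP90B1 (chr12:103930160-103930459, forward strand) and ERO1B (chr1:236281909-236282208, reverse strand) were higher after C3 treatment, HSPA5 (chr9:125241294-125241593, reverse strand) was not called, and HSPA8 (chr11:123062087-123062386, reverse strand) was lower.
HSP90B1: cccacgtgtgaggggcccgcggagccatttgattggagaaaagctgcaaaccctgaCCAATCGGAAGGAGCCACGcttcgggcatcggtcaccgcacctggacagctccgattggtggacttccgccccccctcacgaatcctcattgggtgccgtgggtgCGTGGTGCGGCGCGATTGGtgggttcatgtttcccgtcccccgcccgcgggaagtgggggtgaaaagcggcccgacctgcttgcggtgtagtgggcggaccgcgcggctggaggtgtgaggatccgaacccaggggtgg
ERO1B: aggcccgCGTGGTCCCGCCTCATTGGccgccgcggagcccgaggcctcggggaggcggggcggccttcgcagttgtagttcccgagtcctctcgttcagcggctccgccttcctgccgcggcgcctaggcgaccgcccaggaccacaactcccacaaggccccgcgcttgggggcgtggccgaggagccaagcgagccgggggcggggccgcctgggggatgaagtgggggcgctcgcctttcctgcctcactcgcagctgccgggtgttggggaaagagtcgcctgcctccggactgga
HSPA5: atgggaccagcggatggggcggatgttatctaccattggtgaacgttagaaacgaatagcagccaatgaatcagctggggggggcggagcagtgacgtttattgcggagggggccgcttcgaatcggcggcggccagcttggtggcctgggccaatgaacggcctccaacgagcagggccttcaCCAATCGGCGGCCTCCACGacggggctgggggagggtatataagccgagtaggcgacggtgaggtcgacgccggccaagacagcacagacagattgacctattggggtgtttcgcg
HSPA8: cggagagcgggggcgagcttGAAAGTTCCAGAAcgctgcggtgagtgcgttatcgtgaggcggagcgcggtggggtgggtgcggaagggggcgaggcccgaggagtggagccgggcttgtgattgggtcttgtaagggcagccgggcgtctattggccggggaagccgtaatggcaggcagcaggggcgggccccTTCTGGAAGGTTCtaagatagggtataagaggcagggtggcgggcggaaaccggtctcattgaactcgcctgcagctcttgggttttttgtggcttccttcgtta

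The other ERSE matches are shown in the reading direction of the motif, with its fixed letters in capitals. They belong to genes whose changes did not share a direction.
CALR: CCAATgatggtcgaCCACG
CANX: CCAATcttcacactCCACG
CRELD2: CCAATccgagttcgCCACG
PDIA6: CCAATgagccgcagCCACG
XBP1: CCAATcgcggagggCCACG
The 8 ERSE genes had 2 higher (HSP90B1, ERO1B), 1 lower (CRELD2) and a median log2 fold change of 0.10, with 6 values above 0 and 2 below. The 8 other tested genes with an ERSE had 0 higher and 1 lower, and a median of -0.11 (edgeR). Of the 3 ERSE-II genes, 2 were higher (HYOU1, SDF2L1) and 0 lower, with a median of 0.19. Of the 11 other tested genes with an ERSE-II, 2 were higher and 0 lower, with a median of 0.02. Among all genes tested, 11% were higher and 8.77% lower, and the counts of ERSE and ERSE-II genes were not tested against these shares.

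The 5 genes that hold an exact HSE match all had log2 fold changes below 0. The matches of these cytosolic and mitochondrial chaperones other than HSPA8 are shown in the same way.
DNAJA1: GAActTTCcaGAA
HSP90AA1: GAAccTTCcgGAA
HSP90AB1: GAAtcTTCcaGAA
HSP90AB1: GAAgcTTCcaGAA
HSPD1: GAActTTCcaGAA
HSPD1: GAAagTTCtgGAA
The match of DNAJA1 lies at bases 4 to 16 after the start, and both matches of HSPD1 overlap. HSPA8 and DNAJA1 were called lower, and the median of the 5 genes was -0.13. The exact search passed over stretches that differ from the motif only in its last letter. The windows of HSPB1 (log2 fold change 0.06), HSPA1A (-0.05), HSPA1B (-0.15) and DNAJB1 (-0.10) hold such a stretch. Of the 11 cytosolic genes, with or without a match, 9 had values below 0. The 47 other tested genes with an HSE in a window had 6 higher, 1 lower and a median of 0.0014. Among all genes tested, 11% were higher and 8.77% lower, with a median of 0.0021. The difference between the 5 genes and the 47 others was not tested, nor was the part of the element in it.

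The sensors came first in the order of the response, and none of their transcripts was called. ERN1, the kinase and endonuclease that splices XBP1 mRNA, had 469, 458 and 443 normalized counts in control and 470, 441 and 473 in C3 libraries (log2 fold change 0.01, 95% interval -0.16 to 0.18). EIF2AK3, the kinase that slows translation under ER stress, had 260, 267 and 314 in control and 215, 321 and 291 in C3 libraries (-0.01, interval -0.26 to 0.24), and leaving out 1 library gave values from -0.13 (without C3 replicate 2) to 0.13 (without C3 replicate 1). ATF6, a membrane-bound transcription factor freed by cleavage, had 1270, 1315 and 1340 in control and 1231, 1354 and 1256 in C3 libraries (-0.03, interval -0.16 to 0.10). The groups of all 3 sensors overlapped, and the interval was widest for EIF2AK3, the least abundant. XBP1, the transcription factor made after splicing by ERN1, had 2545, 2504 and 2811 in control and 2600, 2612 and 2597 in C3 libraries (-0.01, interval -0.14 to 0.12). Counts per gene do not separate spliced from unspliced XBP1. HSF1 had 3669, 3671 and 3366 in control and 3554, 3272 and 3212 in C3 libraries, with overlapping groups (-0.09, interval -0.23 to 0.04). Adjusted p-values of these 5 genes were 0.33 to 0.96 (edgeR), and activation of these proteins by cleavage, phosphorylation or assembly is not measured by transcript counts.

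In the ER Hsp70 and Hsp90 system, HSP90B1 (ENSG00000166598, chromosome 12, forward strand, 103930107 to 103953931), the ER Hsp90, had 6817, 6930 and 7290 normalized counts in control and 7924, 8924 and 8756 in C3 libraries. All C3 libraries lay above the control libraries, with C3 replicate 1 the lowest of them. This was a log2 fold change of 0.28 ± 0.064 (SE, adjusted p = 0.0024 by edgeR), and 6.95% of its exon bases overlap genes of the other strand. DNAJC3 (ENSG00000102580, chromosome 13, forward strand, 95677139 to 95794988), a cochaperone of HSPA5 that also inhibits PERK, had 818, 803 and 838 in control and 913, 1047 and 1063 in C3 libraries. The change was 0.30 ± 0.073 on the log2 scale (SE, adjusted p = 0.0042 by edgeR), again with C3 replicate 1 nearest to the control libraries. DNAJC3 and HSP90B1 kept their calls in all 13 alternatives, at 0.26 to 0.38 and 0.25 to 0.36.

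Other partners of HSPA5 moved by similar amounts. HYOU1 (GRP170), the exchange factor that reloads HSPA5, had 6466, 6513 and 6103 in control and 7505, 7208 and 7106 in C3 libraries (log2 fold change 0.19, adjusted p = 0.026 from edgeR). DNAJB11, which hands unfolded clients to HSPA5, had 680, 684 and 677 in control and 782, 781 and 823 in C3 libraries (0.23, adjusted p = 0.024). SDF2L1, a partner of DNAJB11, had 1653, 1788 and 1574 in control and 2225, 1791 and 1958 in C3 libraries (0.25, adjusted p = 0.017). The groups of SDF2L1 were separated by only a few counts, between control replicate 2 and C3 replicate 2. MANF, a secreted protein that binds HSPA5, had 903, 917 and 984 in control and 1113, 1029 and 1147 in C3 libraries (0.23, adjusted p = 0.019). In fits without 1 library, the SDF2L1 call was lost without control replicate 3 (0.21, adjusted p = 0.072) and C3 replicate 1 (0.17, adjusted p = 0.063). HYOU1 lost its call without control replicate 2, control replicate 3, C3 replicate 2 or C3 replicate 3 (adjusted p = 0.085, 0.073, 0.061 and 0.074). MANF and DNAJB11 lost theirs without control replicate 1 (0.071 and 0.057), control replicate 2 (0.096 and 0.086) or C3 replicate 3 (adjusted p = 0.14 for both), and DNAJB11 also by DESeq2 (0.062). All these fits kept the direction.

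HSPA5 itself, the main ER Hsp70, which also restrains the sensors, had 15696, 15658 and 15970 in control and 17644, 17049 and 16611 in C3 libraries. The C3 libraries lay above the control libraries, by less than the test required (log2 fold change 0.12, interval -0.01 to 0.24, adjusted p = 0.20 from edgeR). Scaled by library size alone, HSPA5 had a log2 fold change of 0.19 and an adjusted p-value of 0.011. DNAJB9, an inhibitor of ERN1 and a cochaperone of low abundance, had 106 to 121 in control and 108 to 147 in C3 libraries (0.15, interval -0.16 to 0.46). CRELD2, an ER protein known as a target of ATF6, moved the other way, with 526, 499 and 525 in control and 458, 407 and 452 in C3 libraries. On the log2 scale the change was -0.24 ± 0.083 (SE, adjusted p = 0.044 by edgeR). This call was lost in 9 of 13 alternatives, among them leaving out control replicate 1, 2 or 3 (adjusted p = 0.15, 0.084 and 0.091) or C3 replicate 2 or 3 (0.20 and 0.094).

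**Figure D3:**
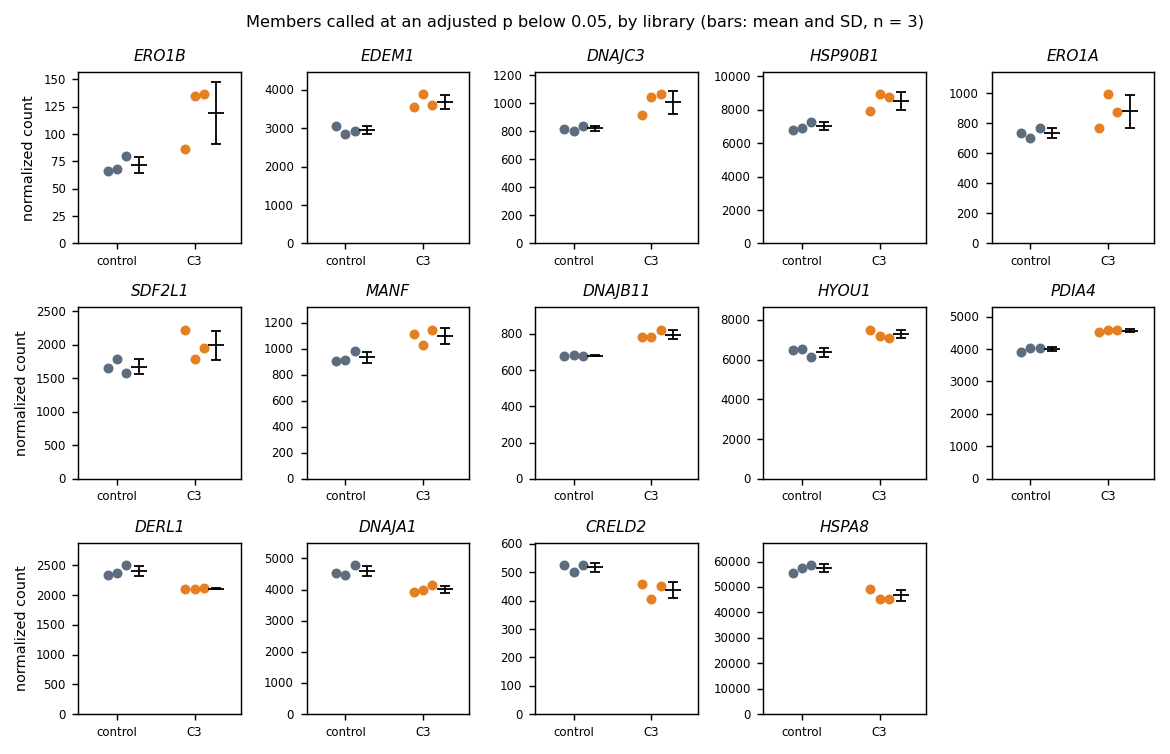
Normalized counts (y axis, from 0) of the 14 genes called at an adjusted p-value below 0.05, in each control and C3 library (points), with the group mean and SD (n = 3). The groups do not overlap in any of them, and C3 replicate 1 (the first C3 point) is the lowest C3 library for ERO1B, DNAJC3, HSP90B1, ERO1A, EDEM1 and PDIA4, which were higher, and for DNAJA1, which was lower.

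Among the disulfide enzymes, ERO1B (ENSG00000086619, chromosome 1, reverse strand, 236214681 to 236282019), an oxidase that recharges the protein disulfide isomerases, had the largest log2 fold change of the 43 genes. It had 66.6, 67.9 and 80.0 normalized counts in control and 86.5, 135 and 136 in C3 libraries. C3 replicate 1 lay just above the highest control library. The change was 0.76 ± 0.18 on the log2 scale (SE, adjusted p = 0.0035 by edgeR), with 0.93 without C3 replicate 1 and 0.65 to 0.93 with any library left out. ERO1A, the more abundant oxidase, had 733, 701 and 765 in control and 771, 992 and 876 in C3 libraries, where C3 replicate 1 again lay close to the controls (0.27, adjusted p = 0.021). Its call was lost without control replicate 1 or 2 (adjusted p = 0.058 and 0.11), without C3 replicate 2 or 3 (0.19 and 0.065) and by DESeq2 (0.056), and without C3 replicate 2 the log2 fold change was 0.17.

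The isomerases differed among themselves. PDIA4 (ERp72) had 3917, 4048 and 4020 in control and 4516, 4601 and 4581 in C3 libraries, with little spread in either group (log2 fold change 0.19, adjusted p = 0.022 from edgeR). Its call was lost without control replicate 1 or 2 (adjusted p = 0.063 and 0.089) or C3 replicate 2 or 3 (0.074 and 0.10). PDIA6 had 6748 to 7129 in control and 7280 to 7944 in C3 libraries (0.12, adjusted p = 0.19, and 0.19 with 0.014 when scaled by library size alone), and 25.2% of its exon bases overlap a gene of the other strand. P4HB (PDI), the most abundant isomerase, had 19850 to 21047 in control and 17912 to 20005 in C3 libraries (-0.13, adjusted p = 0.17). Without C3 replicate 1, P4HB was called lower (-0.18, adjusted p = 0.0094). PDIA3 (ERp57), which works with the lectin chaperones, had a log2 fold change of 0.06, and the lectins CANX and CALR had 0.09 and 0.01. None of these 3 was called, and their groups overlapped. CALR had 40083 to 41711 in control and 39141 to 44722 in C3 libraries, of which C3 replicate 1 was the highest.

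In ER-associated degradation, EDEM1 (ENSG00000134109, chromosome 3, forward strand, 5187646 to 5219958), a lectin that marks misfolded glycoproteins for export, had 3059, 2857 and 2937 normalized counts in control and 3544, 3884 and 3611 in C3 libraries. All C3 libraries lay above all controls. The change of 0.32 ± 0.062 on the log2 scale (SE, adjusted p = 0.00066 by edgeR) had the smallest p-value of the 43 genes, it was called in all 13 alternatives, and 9.37% of its exon bases overlap a gene of the other strand. DERL1, a channel-forming protein of the export complex, had 2343, 2371 and 2509 in control and 2106, 2101 and 2118 in C3 libraries (-0.19, adjusted p = 0.027). DERL1 lost its call without control replicate 1, 2 or 3 (adjusted p = 0.057, 0.087 and 0.079), without C3 replicate 2 or 3 (0.08 and 0.10), with library size alone (0.18) and with no count filter (0.06). Its paralog DERL2 had 512 to 732 in control and 528 to 579 in C3 libraries (-0.16, interval -0.36 to 0.03). The ubiquitin ligase SYVN1 (HRD1) had 824 to 921 in control and 761 to 802 in C3 libraries (-0.13, interval -0.28 to 0.02), and its partner SEL1L had -0.01 (interval -0.15 to 0.13). HERPUD1, a stress-induced scaffold of the same complex, had -0.03 (interval -0.19 to 0.14), and SELENOS, which links it to the cytosolic ATPase VCP, had 0.07 (interval -0.12 to 0.26). None of these 5 was called (edgeR).

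In the cytosol, HSPA8 (HSC70, ENSG00000109971, chromosome 11, reverse strand, 123057489 to 123063230), the constitutive Hsp70, had 55618, 57616 and 58661 normalized counts in control and 49268, 45352 and 45275 in C3 libraries. All C3 libraries lay below all controls, with C3 replicate 1 the nearest to them. The change was -0.30 ± 0.068 on the log2 scale (SE, adjusted p = 0.0027 by edgeR), with -0.34 to -0.22 over the 13 alternatives, in all of which it was called. The 17 pseudogenes named after HSPA8 held 0.014% to 0.031% of its count. DNAJA1, a cochaperone that drives the ATP cycle of HSPA8, had 4532, 4478 and 4790 in control and 3912, 3975 and 4134 in C3 libraries (-0.20, adjusted p = 0.022). Its call was lost without control replicate 1, 2 or 3 (adjusted p = 0.06, 0.065 and 0.063), without C3 replicate 2 or 3 (0.072 and 0.056) and with library size alone (-0.12, adjusted p = 0.15).

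The inducible Hsp70 pair, DNAJB1 and BAG3 were not called. HSPA1A, the stress-inducible Hsp70, had 838, 853 and 860 in control and 904, 782 and 781 in C3 libraries (log2 fold change -0.05, adjusted p = 0.68 from edgeR, and -0.12 without C3 replicate 1). Its near-identical neighbour HSPA1B had 651, 708 and 703 in control and 636, 615 and 613 in C3 libraries (-0.15, adjusted p = 0.18), and reads shared by this pair cannot be assigned with certainty. In addition, 36.6% of the exon bases of HSPA1B overlap a gene of the same strand. DNAJB1 (Hsp40), another HSF1 target, had 2670, 2670 and 2811 in control and 2730, 2444 and 2427 in C3 libraries (-0.10, adjusted p = 0.29), and was called lower without C3 replicate 1 (-0.16, adjusted p = 0.04). BAG3, a cochaperone of selective autophagy, had 734, 695 and 689 in control and 848, 809 and 776 in C3 libraries. The C3 libraries of BAG3 all lay above the controls, with a log2 fold change of 0.20 and an adjusted p-value of 0.054 (edgeR). BAG3 was called with library size alone (adjusted p = 0.011), with the filter at a mean count of 50 (0.036) and with the replicate block (0.041), and its adjusted p-values over all alternatives were 0.011 to 0.18.

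The Hsp90 genes were not called. HSP90AB1, the constitutive Hsp90 and the most abundant cytosolic member per length, had 61612, 61480 and 62999 in control and 58647, 55818 and 55950 in C3 libraries (log2 fold change -0.13, interval -0.26 to 0.01, adjusted p = 0.19 from edgeR). HSP90AA1, the inducible form, had 13454, 13654 and 14081 in control and 12167, 12915 and 12768 in C3 libraries (-0.12, interval -0.25 to 0.01, adjusted p = 0.18). The C3 libraries of both lay below all controls, and HSP90AB1 was called by DESeq2 (-0.14, adjusted p = 0.024) and without C3 replicate 1 (-0.15, adjusted p = 0.018). The Hsp110 genes HSPA4 and HSPH1, which reload Hsp70, had -0.03 and -0.05 with overlapping groups, and the small heat shock gene HSPB1 had 0.06. Summed over the 11 genes, the level was 8263, 8372 and 8582 CPM in control and 7677, 7316 and 7345 in C3 libraries, a difference of -11.4%. The sum is weighted to the abundant HSPA8 and HSP90AB1, of which the latter was not called, and the unweighted mean log2 change of the 11 genes was -0.08. The 9 genes of the ER Hsp70 and Hsp90 system summed to 1809, 1822 and 1830 CPM in control and 2077, 2062 and 2043 in C3 libraries, a difference of 13.2%. A ratio inside a library does not depend on how libraries are scaled, and the log2 ratio of HSP90B1 to HSPA8, a pair picked after their values were seen, was -3.03, -3.06 and -3.01 in control and -2.64, -2.35 and -2.37 in C3 libraries. This difference of 0.58 was the largest of 7 such ratios, among which HSPA5 to HSPA8 differed by 0.41, HSP90B1 to HSPA5 by 0.17 and HSPA1A to HSPA1B by 0.09, with overlapping groups for the last and for HSP90B1 to HSPA5.

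Of the mitochondrial chaperones, HSPD1 (HSP60) had 18235 to 20914 normalized counts in control and 17595 to 17962 in C3 libraries (log2 fold change -0.12, interval -0.25 to 0.02). Its partner HSPE1 (HSP10), which lies head to head with it on chromosome 2, had 884 to 922 in control and 883 to 940 in C3 libraries (0.01, interval -0.13 to 0.15), and 10.5% of its exon bases are shared with a read-through gene. HSPA9 (mortalin) had 14402 to 15222 in control and 15212 to 15574 in C3 libraries (0.05, interval -0.07 to 0.18). None of the 3 was called by edgeR, and the C3 libraries of HSPD1 all lay below the controls.

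Levels were compared between genes per kilobase of merged exons. This length takes in every annotated exon and can exceed that of the transcript present, so the order depends on it. P4HB, with a control mean of 20486 normalized counts over 11132 bases, came below HSP90AA1, with 13730 over 5097 bases. In control cells HSP90AB1 was first with 1118 ± 15.2 CPM per kb (SD, n = 3), followed by CALR with 788 ± 17.2 and HSPA8 with 635 ± 17.1, and the spread of these 3 did not overlap. After a wide gap came HSP90AA1 (145 ± 3.38), HSPD1 (136 ± 9.80) and HSPA5 (130 ± 1.40). The spread of HSPD1 overlaps those of HSP90AA1 and HSPA5, which do not meet each other. The genes called higher came from all of the lower range, from SDF2L1 (84.8 ± 5.49) and PDIA4 (65.1 ± 1.13) down to ERO1B, the last of the 43, with 0.25 ± 0.026 in control and 0.42 ± 0.099 in C3 libraries. The inducible Hsp70 genes HSPA1A and HSPA1B stood at 19.0 ± 0.25 and 14.7 ± 0.67, far below the constitutive HSPA8. Per length the sensors were at the low end, with ATF6 at 4.93 ± 0.13, ERN1 at 1.28 ± 0.037 and EIF2AK3 at 0.73 ± 0.077. XBP1 reached 46.5 ± 2.96. The merged exons of these sensors are long, with 14263, 19153 and 20691 bases. DNAJB9, with 2538 bases, had fewer normalized counts in control than EIF2AK3 (means of 113 and 280) but stood above it per kb, at 2.40.

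**Figure D4:**
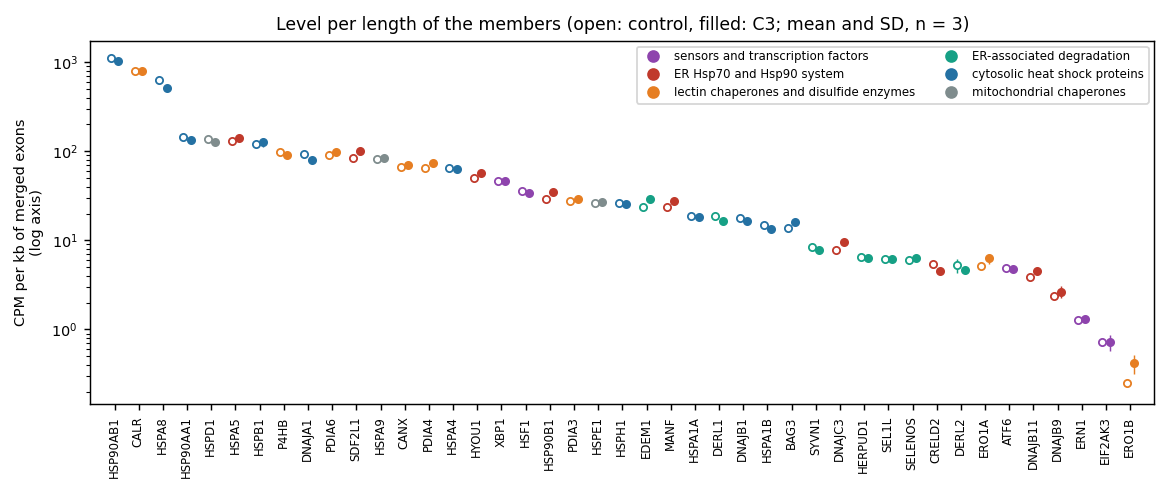
Level per length of the 43 genes (CPM per kb of merged exons, log axis) in control (open) and C3 libraries (filled), mean and SD of 3 libraries each, ordered by the control level and coloured by role. HSP90AB1, CALR and HSPA8 stand above all others and ERO1B is the lowest, so the largest change was in the least abundant gene.

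Other genes of the same pathways, from 6 lists, were counted in the same way, to be read against the shares of all genes tested (11% higher and 8.77% lower, or 16.8% and 15.3% without adjustment). Of 37 tested ER folding genes outside the group, 4 were higher (10.8%) and 3 lower (8.11%), or 6 and 6 without adjustment, shares near those of all genes tested, with a median log2 fold change of 0.0052. TXNDC5, a thioredoxin-domain isomerase, went from 663 to 865 normalized counts in control to 1036 to 1119 in C3 libraries (0.46, adjusted p = 2.1e-04 from edgeR), but 60.9% of its exon bases are shared with a read-through gene on its strand. UGGT1, which checks the folding of glycoproteins, had 0.21 (adjusted p = 0.021), whereas GANAB, the glucosidase that acts before it, had -0.26, and TMX4, a membrane oxidoreductase, had -0.32 (adjusted p = 0.0061 for both). Of 29 other degradation genes, 0 were higher and 4 lower (13.8%), or 1 and 11 without adjustment, led by the ubiquitin ligase RNF5 (-0.32) and the glycanase NGLY1 (-0.33). Their median was -0.10, and 21 of the 29 had values below 0. Of 23 translocation genes, 1 was higher (SEC63, 0.23, a partner of HSPA5) and 3 were lower, led by SRPRB (-0.31) and the channel subunit SEC61A1 (-0.20), or 1 and 7 without adjustment.

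Of 22 tested genes of the PERK branch and other stress regulators, 3 were higher and 1 lower, or 5 and 4 without adjustment. CREB3L1, an ER-membrane transcription factor related to ATF6, had 99.9, 99.7 and 104 normalized counts in control and 280, 256 and 259 in C3 libraries. Its groups were far apart (1.39 ± 0.12 on the log2 scale, SE, adjusted p = 1e-08 by edgeR), a larger change than in any of the 43 genes. CEBPB and ATF3, stress-responsive transcription factors, had 0.38 and 0.31 (adjusted p = 0.0016 and 0.035), and RTCB, the ligase that joins spliced XBP1 mRNA, had -0.18 (adjusted p = 0.047). The core of the PERK branch was not called. ATF4, its main transcription factor, had 4258, 4252 and 4273 in control and 4520, 4450 and 4698 in C3 libraries (0.10, adjusted p = 0.28), DDIT3 (CHOP) had 33.9 to 52.5 in control and 36.4 to 70.8 in C3 libraries (0.31, adjusted p = 0.41), and PPP1R15A (GADD34) had -0.15 (adjusted p = 0.11).

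Of 47 tested cytosolic chaperones and cochaperones outside the group, 3 were higher and 1 lower, or 6 and 6 without adjustment, with a median of -0.05. HSPA6, an Hsp70 that is strictly stress-inducible in human cells, had 144, 174 and 112 normalized counts in control and 255, 199 and 225 in C3 libraries. The change was 0.65 ± 0.14 on the log2 scale (SE, adjusted p = 0.0017 by edgeR), opposite in sign to HSPA8. DNAJB5, a low-count Hsp40, had 6.86, 10.6 and 5.97 in control and 21.6, 23 and 19.6 in C3 libraries (1.43, adjusted p = 0.012). HSPBP1, an exchange factor of cytosolic Hsp70, had -0.24 (adjusted p = 0.013), and CDC37, the Hsp90 cochaperone for kinases, was also called, with 0.22 (adjusted p = 0.014). Of 13 other mitochondrial chaperones and proteases, 0 were called by edgeR (1 higher and 2 lower without adjustment).

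**Figure D5:**
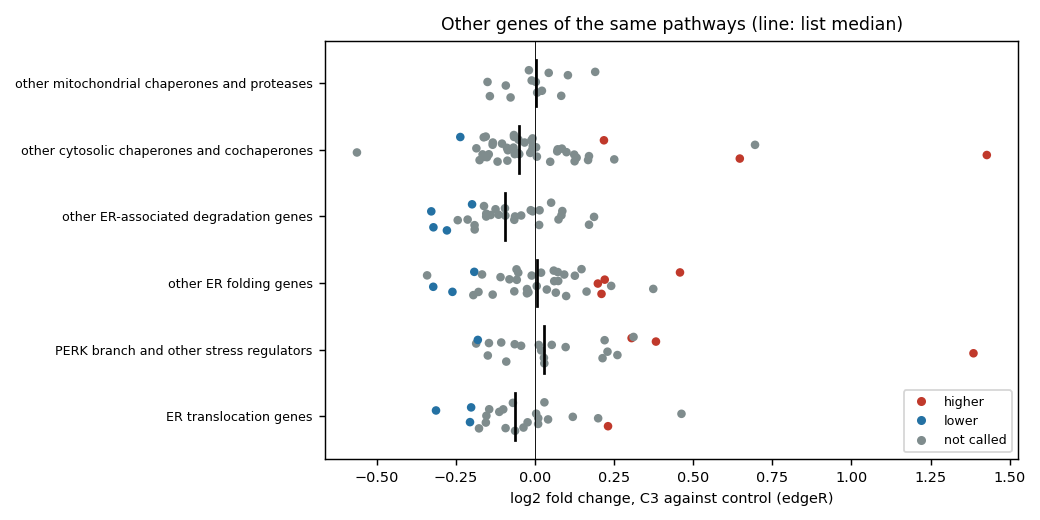
Log2 fold change, C3 against control, of the tested genes of 6 related lists (points, coloured by call at an adjusted p-value below 0.05 in edgeR), with the median of each list as a line. CREB3L1 (1.39) and DNAJB5 (1.43) stand apart on the right, and the list medians lie between -0.10 and 0.03.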

How the data were processed

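Reads of 3 control and 3 C3 libraries had been cleaned with fastp, mapped to GRCh38/hg38 with STAR (2.6.1d) and assigned with featureCounts (1.5.0-p3) by the authors, as named in the submitters' processing notes. Neither the gene annotation nor the handling of strand is stated in the sources at hand, so reads of overlapping genes may be shared. The deposited table holds raw counts, unnormalized. Columns were matched to samples by name.

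Genes reaching 10 counts in 3 or more libraries (15078) were scaled by TMM and tested with edgeR 4.0.16 under R 4.3.3 (quasi-likelihood, Benjamini-Hochberg over all of them, no replicate block). A normalized count is scaled to the mean effective library size, and CPM share that scaling. Each SE is derived from the F statistic, and intervals cover 95%. An exact two-sided permutation test of 3 against 3 libraries cannot go below 0.1, the value of all 22 genes with separated groups.

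The members and lists were chosen with earlier results of these data known. Values per library are given for called genes and for ERN1, EIF2AK3, ATF6, XBP1, HSF1, HSPA5, HSP90B1, HSPA1A, HSPA1B, HSPA8, DNAJB1, HSP90AA1 and HSP90AB1. Each related list gives its 2 called genes of smallest p in each direction, with ATF4, DDIT3 and PPP1R15A added. BAG3, ATF3 and CDC37 were named after their values were seen. Of 177 related symbols, 1 had no match. Gene coordinates, exon lengths and overlaps are from GENCODE on GRCh38. Alternatives were RLE factors, scaling to library size, omitting the filter, a stricter filter (mean 50), DESeq2 1.42.0, limma-voom (limma 3.58.1), a replicate block and leaving out each library.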

Additional observations from a re-analysis of the deposited data

How the results depend on the processing

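Of the 13 alternatives, all kept the direction of the 14 called genes. HSPA8, HSP90B1, DNAJC3, EDEM1 and ERO1B were called in each. The 10 higher and 4 lower genes became 5 to 9 higher and 1 to 7 lower with a library left out, with 7 lower without C3 replicate 1 and 1 lower without any other library. Of all genes tested, 1940 were lower without C3 replicate 1 and 604 to 1110 without any other library. With a library left out, 0 to 1 of the 43 genes passed the gates of the study as higher. Their median log2 fold change stayed between -7.0e-05 and 0.020. Library size alone gave 13 higher genes and 1 lower gene, with 2 higher and 0 lower at the gates of the study, and moved the median of the 43 genes from 0.0081 to 0.080 and that of all genes tested from 0.0021 to 0.076. No count filter gave 2 lower genes, and DESeq2 passed 0 higher genes at the gates of the study. Scaling by library size alone leaves out the TMM factors, which were 0.966 to 0.985 in control and 0.992 to 1.04 in C3 libraries. Why these factors differ was not tested, nor was the cause of the other shifts. With the replicate number as a block, 15 genes were called, all 14 and BAG3, so no call was lost. Over all genes tested, the block gave 1852 higher and 1550 lower, in place of 1658 and 1323. Correlations of same-numbered libraries were 0.021, -0.047 and 0.03. With 3 libraries per group, such values cannot show whether the libraries were prepared in pairs. Among the 43 genes, ERO1B and DNAJB9, which had about 100 counts, had wide standard errors (0.18 and 0.15).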
